A study of Mus musculus with 2 samples.

Results

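The genes described are the haem synthesis enzymes Alas1, Alas2, Alad, Uros, Urod, Cpox, Ppox and Fech, together with Hmox1, the first enzyme of haem breakdown. They are 9 of the 15683 annotated genes with at least 1 read. All 9 had reads in both libraries. The set was selected on levels measured earlier in these same libraries, with Alas1 chosen for its high level and its difference between them, so levels are given as a description. Members were found by gene name in the deposited tables.

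Adrenal glands came from male B6CASTF1/J mice aged 36 days, first-generation hybrids of the C57BL/6J and CAST/EiJ strains. The 2 libraries, replicate 1 and replicate 2, form 1 group with no treatment, genotype or time set against another. The label fields disagree on whether both came from 1 animal, so the spread between them may be technical. Each long read was counted once, and a level is the count scaled to the endogenous reads of its library (CPM). With a single group, the values below set replicate 1 against replicate 2.

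Haem is made in a short chain of enzymes that begins and ends in the mitochondrion. ALA synthase joins glycine and succinyl-CoA in the committed step, which sets the pace of the pathway, and haem itself lowers the amount of the housekeeping enzyme encoded by Alas1. Adrenal cortex makes steroids with cytochrome P450 enzymes, which need haem as their cofactor. Red blood cell precursors use a second ALA synthase, encoded by Alas2 on the X chromosome.

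The libraries held 452489 and 463210 endogenous reads, so 1 read was worth 2.21 and 2.16 CPM. A count of 0 allows up to 6.63 and 6.48 CPM. Markers of the adrenal cortex summed to 36226 and 29581 reads, and all 10 listed were seen in both libraries. Chromaffin markers summed to 5334 and 7792 reads. Other tissues were unequally present: pancreas acinar markers summed to 36 and 3266 reads, liver markers to 3 and 264, and brown fat markers to 995 and 2209. Their part in the differences below was not tested. In bulk tissue, fewer cells of a type and less RNA per cell cannot be told apart.

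Alas1 (ENSMUSG00000032786.16, chr9:106233455-106248654 on the minus strand, mm10) had 1593 reads in replicate 1 and 317 reads in replicate 2. These were 3521 and 684 CPM, with a mean of 2102 ± 2005 (SD, n = 2). The 2 counting intervals were far apart, at 3350 to 3698 CPM in replicate 1 and 611 to 764 CPM in replicate 2. The ratio of replicate 1 over replicate 2 was 5.14 (exact 95% interval 4.56 to 5.82). By its mean level, which rests mostly on replicate 1, Alas1 ranked 32 among the genes seen. Of the reads of the 8 synthesis genes, it took 86.3% in replicate 1 and 60.4% in replicate 2.

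**Figure D1:**
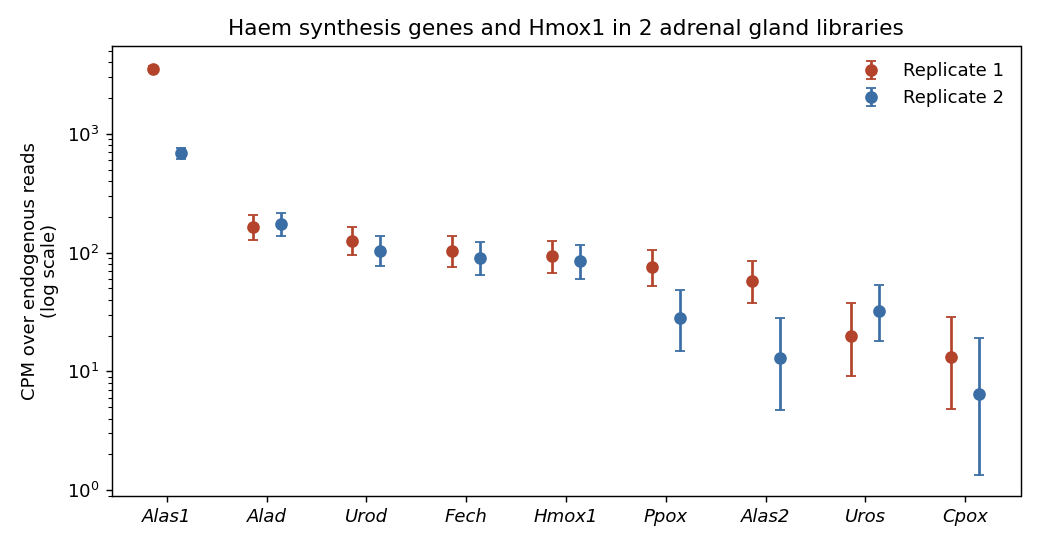
Level in CPM (log axis) of each gene in replicate 1 (red) and replicate 2 (blue), with exact Poisson 95% intervals that cover counting error only. Alas1 stands above all others in both libraries, at 3521 and 684 CPM. The paired intervals of Alad, Urod, Fech, Hmox1, Uros and Cpox overlap, and those of Alas1, Ppox and Alas2 do not.

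Alas2 (ENSMUSG00000025270.13, chrX:150547375-150570638 on the plus strand), the erythroid ALA synthase, had 26 reads in replicate 1, against 6 in replicate 2, or 57.5 and 13.0 CPM (35.2 ± 31.5, SD, n = 2). The ratio was 4.44, with a wide interval of 1.79 to 13.2. Of the 15 annotated genes among the listed red blood cell markers, 5 had reads. They summed to 2159 reads in replicate 1 and 1859 in replicate 2, nearly all of them globin. The other 10, among them Slc4a1, Klf1 and Gata1, had 0 reads in both libraries. None of these listed markers was called between the libraries; Alas2 itself is not on that list.

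The next enzymes lay much closer together. Alad (ENSMUSG00000028393.10, chr4:62509169-62519918, minus strand), which joins ALA molecules into porphobilinogen, had 74 and 81 reads, or 164 and 175 CPM (169 ± 8.01, SD, n = 2). Uros (ENSMUSG00000030979.13, chr7:133686243-133710072, minus strand), which closes the ring as uroporphyrinogen III, had 9 and 15 reads, or 19.9 and 32.4 CPM. Urod (ENSMUSG00000028684.14, chr4:116989965-116994413, minus strand), the decarboxylase that follows, had 57 and 48 reads, or 126 and 104 CPM. Each of these ratios had an interval that spanned 1, at 0.935 (0.673 to 1.30) for Alad, 0.614 (0.237 to 1.5) for Uros and 1.22 (0.813 to 1.82) for Urod.

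Of the last enzymes, Cpox (ENSMUSG00000022742.6, chr16:58670292-58717636, plus strand), the oxidase that makes protoporphyrinogen, had the fewest reads of all members, 6 and 3. Its ratio of 2.05 had an interval of 0.437 to 12.7. Ppox (ENSMUSG00000062729.11, chr1:171275990-171281186, minus strand), which oxidises protoporphyrinogen, had 34 and 13 reads, or 75.1 and 28.1 CPM (51.6 ± 33.3, SD, n = 2). Its ratio was 2.68 (1.38 to 5.53), which leaves 1 outside the interval. Fech (ENSMUSG00000024588.9), ferrochelatase, which inserts the iron, had 47 and 42 reads, or 104 and 90.7 CPM. Its ratio was 1.15 (0.739 to 1.78).

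Hmox1 (ENSMUSG00000005413.8, chr8:75093621-75100589, plus strand), haem oxygenase 1, had 42 and 39 reads in replicate 1 and replicate 2. These were 92.8 and 84.2 CPM, a ratio of 1.10 (0.696 to 1.75). Of its reads, 10 in replicate 2 and none in replicate 1 were of the Genomic class, which overlap a gene without its splicing. Spliced full-length reads alone numbered 31 and 27.

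The order by mean CPM was Alas1, Alad, Urod, Fech, Hmox1, Ppox, Alas2, Uros and Cpox. The ranges over the libraries did not overlap between Alas1 and Alad, Alad and Urod, Hmox1 and Ppox, or Uros and Cpox. Neighbours from Urod to Hmox1 overlapped, and so did Ppox with Alas2 and Alas2 with Uros. Each long read was counted once whatever its length, so these levels are not divided by length. Reads that cover only a part of a transcript were included. Annotated leading forms ran from 1206 bases for Alad-201 to 6571 bases for Fech-208, and whether longer molecules were read less often was not tested. With full-length reads alone, Fech came before Urod.

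The reads of every gene with 10 or more over both libraries were set against the remaining reads of each library (Fisher's exact test, two-sided), and p was adjusted by Benjamini-Hochberg over all 8135 genes tested. A call needed an adjusted p below 0.05 together with a 2-fold ratio once 1 CPM was added to each level. The test compares these libraries, not conditions. Of the 8 members tested, 3 were called, against a background of 3.16% of all genes, and all 3 were higher in replicate 1, against 1.71% of all genes. Alas1 was called with a log2 ratio of 2.36 (Fisher's exact test, adjusted p = 2.65e-207). Alas2 had a log2 ratio of 2.07 (Fisher's exact test, adjusted p = 0.00700). Ppox had 1.39 (Fisher's exact test, adjusted p = 0.0329), and its call was lost with DESeq2 size factors (adjusted p = 0.0507) and without the filter on low counts (adjusted p = 0.0633). Over its 6 alternatives the adjusted p of Ppox ran from 0.0254 to 0.0633. The difference in Alas1 was known when it was chosen, so the count of calls is no independent support.

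The 5 other tested members were not called, with log2 ratios from -0.68 in Uros to 0.28 in Urod. Cpox had too few reads to be tested. The median log2 ratio was 0.24 over the 8 tested members and 0.03 over all genes tested. Among the 256 genes with at least 500 reads summed, 2 had a ratio at least that of Alas1, itself included. The other was Nr4a1, a nuclear receptor gene induced early after stimulation (519 and 8 reads), named after its values were seen.

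**Figure D2:**
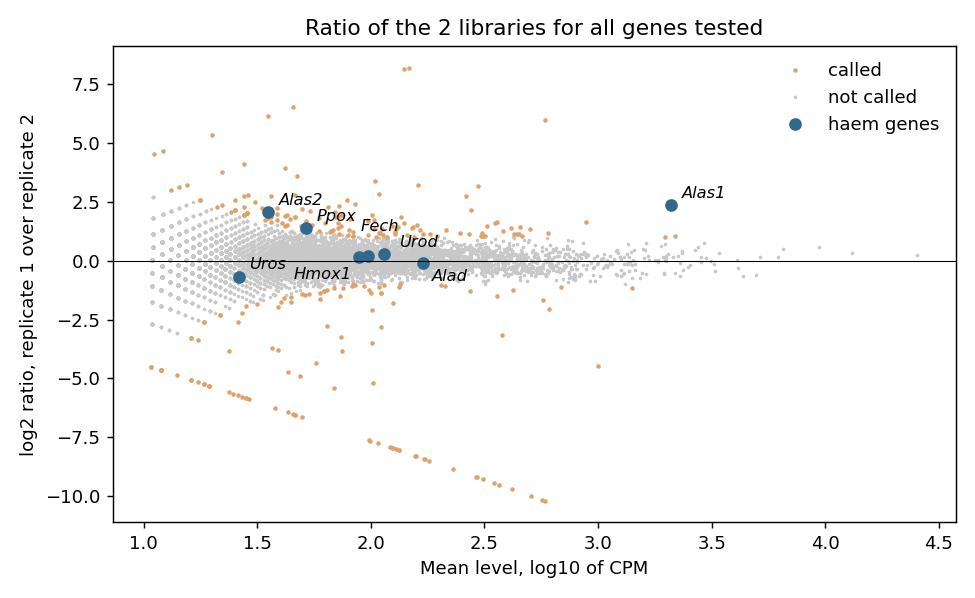
Log2 ratio of replicate 1 over replicate 2, with 1 CPM added, against the mean level (log10 CPM) for the 8135 genes tested. Orange points were called, grey points were not, and blue points are the 8 tested haem genes; Alas1 lies at 2.36 among genes of high level, and the slanted rows at the lower left are genes with 0 reads in replicate 1.

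The same Alas1 reads were also set against the reads of other members, which restates the difference above and adds no support to it. There were 21.5 Alas1 reads for each Alad read in replicate 1 and 3.91 in replicate 2. The same count per Fech read was 33.9 and 7.55, and per Ppox read 46.9 and 24.4. Per Alas2 read it was 61.3 and 52.8. Only 26 and 6 Alas2 reads lie behind these values, too few to show whether the 2 ALA synthase genes kept their proportion. Per 1000 reads of adrenal cortex markers, Alas1 reads numbered 44.0 in replicate 1 and 10.7 in replicate 2. That ratio was 4.10, by a scaling chosen after the data were seen.

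Genes around the pathway were described from lists. The 4 haem breakdown genes summed to 117 and 119 reads with none called. After Hmox1 the largest were Hmox2 (33 and 35 reads), the constitutive haem oxygenase, and Blvrb (22 and 30), a biliverdin reductase. Of 22 listed haem and porphyrin transport genes, 14 were tested and none was called, with a median log2 ratio of 0.00. The largest were Tspo (366 and 420 reads), a mitochondrial outer membrane protein that binds porphyrins and cholesterol, the haem-binding Pgrmc1 (366 and 308) and the mitochondrial carrier Slc25a39 (258 and 238).

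Of the 10 genes that supply glycine and succinyl-CoA, 8 were tested and none was called (median log2 ratio 0.00). Their largest were Sucla2 (232 and 231 reads) and Suclg1 (154 and 196), subunits of succinyl-CoA ligase, and Dld (157 and 123), a subunit of the oxoglutarate dehydrogenase complex. Of the 18 genes listed for control of ALA synthase, 9 were tested and none was called (median 0.09). Lonp1, the mitochondrial protease that degrades ALA synthase, had 529 and 442 reads, Clpp, another mitochondrial protease, had 79 and 92, and Aco1, the iron sensor that binds the Alas2 message, had 56 and 54. Ppargc1a, a coactivator that raises Alas1 in fasted liver, had 0 reads in both libraries.

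The P450 enzymes and their partners summed to 24310 and 20694 reads in replicate 1 and replicate 2. None of the 13 tested was called, and their median log2 ratio was 0.34. Cyp11a1, which cuts the side chain of cholesterol, had 12394 and 10862 reads. Cyp21a1, the 21-hydroxylase, had 6639 and 5343, and Cyp11b1, the 11-hydroxylase, had 2460 and 2251. These log2 ratios, from 0.16 to 0.35, passed the adjusted p but not the fold threshold. Among the adrenal cortex markers, Nr5a1, the steroidogenic transcription factor, was called higher in replicate 1 (274 and 129 reads).

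The list of other haem proteins held subunits and assembly factors of haem complexes too. Of its 14 tested genes, 1 was called in each direction, and the median log2 ratio was -0.06. The mitochondrial gene mt-Cytb, the haem-bearing cytochrome b, was lower in replicate 1 (84 and 247 reads). Sqle, a flavin enzyme of cholesterol synthesis that carries no haem, was higher in replicate 1 (42 and 12). Its largest members were Cyc1 (408 and 443 reads), Uqcrfs1 (297 and 353) and Cycs (209 and 281), from respiratory complex III and cytochrome c itself.

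Reads were sorted by the deposited TALON classes. Known reads carry all the splice junctions of an annotated transcript, though their outer ends may differ from it. ISM reads, or incomplete splice matches, carry only a part of them. NIC and NNC reads are full length but unannotated, as a new combination of splice sites or with a new splice site. Full-length reads (Known, NIC and NNC) made up 96.4% of Alas1 reads in replicate 1 and 95.9% in replicate 2, against 82.9% and 79.5% of all endogenous reads. Hmox1 (73.8% and 69.2%) and Urod (75.4% and 83.3%) were lower than Alas1. In Urod, 10 and 6 reads were single-exon fragments of the ISM class.

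**Figure D3:**
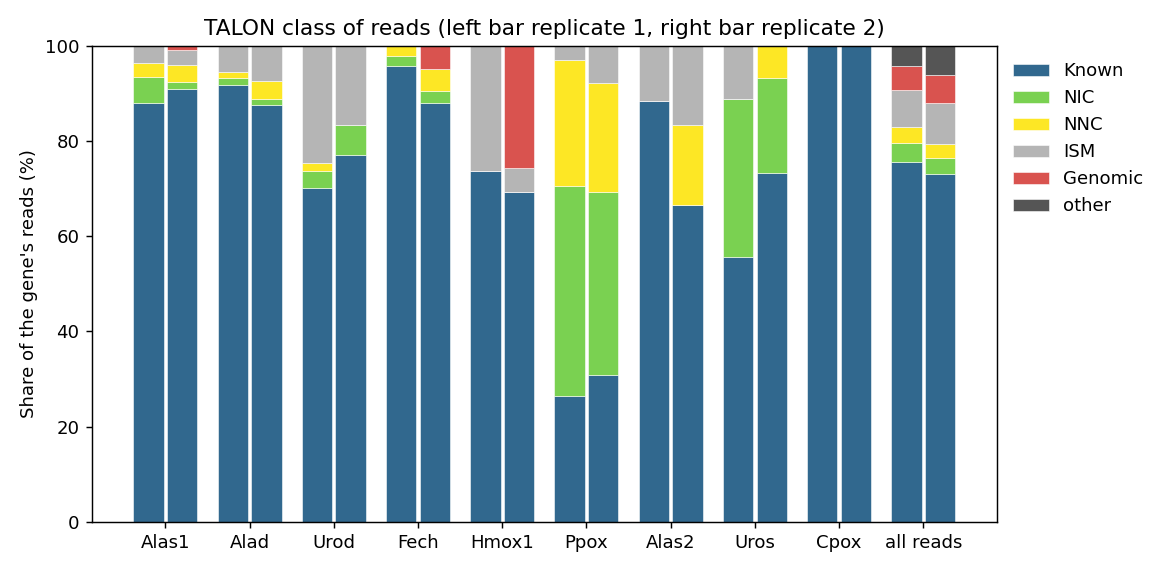
Share of each gene's reads (percent) by TALON class, the left bar of each pair for replicate 1 and the right bar for replicate 2; other holds Antisense and Intergenic reads. Among the 9 genes Ppox has the largest share of NIC and NNC reads in both libraries, and the pair at the right is all endogenous reads.

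Over both libraries, unannotated forms held 149 of 1839 full-length Alas1 reads, or 8.10% (Wilson 95% interval 6.94 to 9.44). The share was 71.1% in Ppox (32 of 45 reads, 56.6 to 82.3) and 30.4% in Uros (7 of 23 reads, 15.6 to 50.9). The median was 5.32% across the 5248 genes where full-length reads summed to 20 or more. Of these genes, 39.7% had a share at or above that of Alas1, 10.5% at or above that of Uros and 2.31% at or above that of Ppox. The other members ranged from 0 of 58 reads in Hmox1 and 0 of 9 in Cpox to 7.23% in Urod. Of the 128 NIC reads over all members, 43 used a splice site that M21 does not hold, so the class does not by itself show that all sites were annotated.

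Alas1 was read almost wholly as 1 form. Alas1-207 is annotated with 11 exons and 3399 bases, a length that was not checked in the reads. Its annotated start is position 106248654, whereas the most read unannotated form starts at 106247867. Alas1-207 took 1398 of 1535 full-length reads in replicate 1 (91.1%, Wilson 95% interval 89.5 to 92.4). In replicate 2 it took 287 of 304 (94.4%, 91.2 to 96.5). The mean was 92.7% ± 2.36 (SD, n = 2), and the difference was not called (Fisher's exact test, adjusted p = 1.0 over 2788 genes). Across those genes 0.0717% were called for a change of leading form, and none of the 4 members tested was. Alas1-201 had 2 and 1 reads and Alas1-202 had 1 and 0. In total, 58 Alas1 forms were seen, of which 54 were unannotated, and 31 of these had a single read.

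Translation of Alas1-207 starts in exon 2, so exon 1 is untranslated. The unannotated forms with at least 5 reads changed a few places. In replicate 1, 1558 reads kept intron 8 (chr9:106236709-106238074, 1366 bases) or spliced it at the sites of Alas1-207. Of these, 43 kept it, or 2.76% (2.06 to 3.70). In replicate 2 it was kept in 0 of 304 such reads, which allows a share of up to 0.987%. Reading on from the annotated start, the frame closes 78 bases into the intron after 471 codons, against 642 codons in the spliced form. Intron 4 (297 bases) was kept in 10 and 0 reads.

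An upstream first exon of 63 bases (chr9:106250946-106251008), which M21 does not hold and which ends 2292 bases before the annotated start, stood in 14 of 1535 full-length reads in replicate 1, or 0.912% (0.544 to 1.53), counting 2 reads with a slightly different exon end. Replicate 2 had 0 of 304, a limit of 0.987%, so a difference was not detectable at this depth. The annotated first exon that ends at position 106247785 was used by 98.6% of full-length reads in replicate 1 and 99.7% in replicate 2. Exon 2, which holds the annotated start codon, began 153 bases earlier in 16 and 1 reads. Whether these added bases, a whole number of codons, change where translation starts was not checked.

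**Figure D4:**
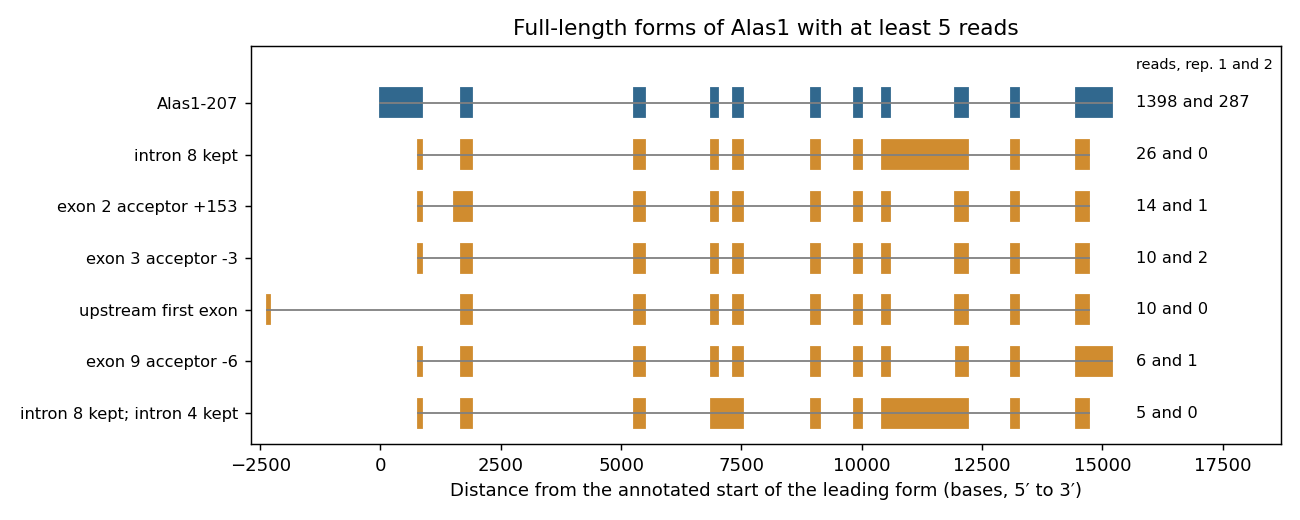
Exons (boxes, to scale) of the full-length Alas1 forms with at least 5 reads, by distance in bases from the annotated start of Alas1-207, with the reads of replicate 1 and replicate 2 at the right. Alas1-207 had 1398 and 287 reads, and none of the other 6 forms had more than 26 in a library. Alas1-207 is drawn with its annotated ends and the other forms with those of the deposited models. Differences in outer ends between them are therefore not a result.

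Exon 3 has a pair of acceptors 3 bases apart. The shorter exon, annotated in Alas1-205, was read 12 times in replicate 1 and 2 times in replicate 2, or 0.782% and 0.658% of full-length reads. The junctions of exon 2 with exon 3 are shown 5′ to 3′ from M21 transcripts (GRCm38, minus strand, the reference sequence rather than that of these hybrid mice), with the 3 bases that the second acceptor leaves out in capitals.
Alas1-207 junction: cagccaatgagaAAGagaaaactgcca
Alas1-205 junction: cagccaatgagaagaaaactgcca
The change is 1 codon and keeps the frame. Acceptors of exon 8 (3 bases, 4 and 1 reads) and exon 9 (6 bases, 6 and 1 reads) moved by whole codons too.

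Alas2 also had a choice of acceptor at exon 3. Alas2-201 was read 19 times in replicate 1 and 2 times in replicate 2, and Alas2-202, which lacks the first 45 bases of the exon, 4 and 2 times. The share of Alas2-201 was 82.6% of 23 full-length reads (62.9 to 93.0) in replicate 1, and in replicate 2 it was 2 of 5 reads (11.8 to 76.9), so the intervals overlap. The 45 bases are shown in capitals with 12 bases of spliced sequence on each side. With the 12 that follow they lie at chrX:150552959-150553015 (GRCm38, plus strand), and their loss keeps the frame.
Alas2-201 exon 3: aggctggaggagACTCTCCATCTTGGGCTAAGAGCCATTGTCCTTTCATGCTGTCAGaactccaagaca

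Ppox was the member whose reads were least often fully spliced. Ppox-201, annotated with 13 exons and 1821 bases, was still the leading form. It took only 9 of 33 full-length reads in replicate 1 (27.3%, 15.1 to 44.2) and 4 of 12 in replicate 2 (33.3%, 13.8 to 60.9). The other reads spread over 20 unannotated forms, 13 of them with a single read. At least 1 intron was kept in 17 and 6 of these reads. The most frequent unannotated forms kept introns 3, 4, 5 and 7 together (2 and 2 reads), kept introns 3, 4 and 5 (3 and 0), or changed only the end of exon 1 (2 and 2). No annotated retained-intron transcript of Ppox had a read.

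Retention lay in neighbouring introns in the first part of the gene. Counts are out of reads that keep an intron or splice it at the sites of Ppox-201. Reads that splice it at a shifted site are left out. Intron 3 was kept in 11 of 25 such reads in replicate 1 and 2 of 10 in replicate 2. Intron 4 was kept in 14 of 33 and 3 of 12, and intron 5 in 13 of 30 and 6 of 12. Intron 7 (927 bases) was kept in 5 of 34 and 2 of 12, and the other 8 introns in no read. Over all full-length reads, intron 3 was kept in 11 of 33 (33.3%) and 2 of 12 (16.7%). Intron 5 was kept in 13 of 33 (39.4%) and 6 of 12 of those. In replicate 1, 15 of the 17 reads kept more than 1 intron, as did 3 of 6 in replicate 2. Both libraries show the same introns, and their intervals overlap at each.

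**Figure D5:**
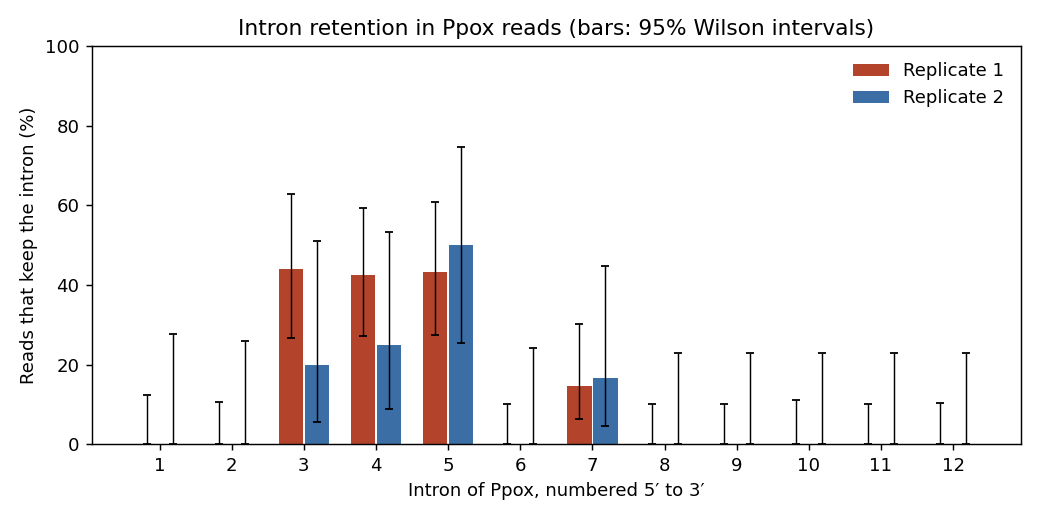
Percent of reads that keep each Ppox intron, in replicate 1 (red) and replicate 2 (blue), with Wilson 95% intervals as black lines. Percents are out of reads that keep the intron or splice it at the sites of Ppox-201, without reads that use a shifted site. Introns 3, 4 and 5 are kept in 2 to 14 reads of each library, intron 7 in 14.7% and 16.7% of reads, and the others in none.

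Summed over its introns and counted the same way, Ppox kept 43 of 381 intron passages in replicate 1 and 13 of 144 in replicate 2, or 11.3% and 9.03%. Over both libraries the value was 10.7%, and 48 of 4976 genes were at or above it, where the median gene was at 0. Alas1 was at 0.439% and 0.0660%, and Fech and Alas2 kept no intron. B4galt3 lies on the opposite strand over Ppox, with 15 and 10 reads of its own. The 3 introns are shown 5′ to 3′ as M21 transcripts hold them (GRCm38, minus strand), with their first and last 2 bases in capitals.
Ppox intron 3: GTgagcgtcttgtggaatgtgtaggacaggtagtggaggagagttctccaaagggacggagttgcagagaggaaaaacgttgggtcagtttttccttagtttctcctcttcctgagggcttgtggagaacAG
Ppox intron 4: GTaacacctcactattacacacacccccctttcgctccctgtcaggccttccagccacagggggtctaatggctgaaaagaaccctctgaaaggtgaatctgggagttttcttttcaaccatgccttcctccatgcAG
Ppox intron 5: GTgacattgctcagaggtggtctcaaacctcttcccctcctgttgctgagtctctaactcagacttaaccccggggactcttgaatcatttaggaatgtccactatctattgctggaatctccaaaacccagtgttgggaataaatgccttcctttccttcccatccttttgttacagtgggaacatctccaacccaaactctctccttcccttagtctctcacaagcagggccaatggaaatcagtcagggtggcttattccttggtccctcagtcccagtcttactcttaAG
They lie at chr1:171280256-171280387 (132 bases), chr1:171280002-171280139 (138 bases) and chr1:171279575-171279868 (294 bases). Each begins with GT and ends with AG. Kept alone, intron 3 closes the reading frame after 81 codons, intron 4 after 113 and intron 5 after 175, against 477 codons in Ppox-201. Besides retention, exon 1 ended 81 bases earlier in 4 and 2 reads, at a site that M21 does not hold, and exon 4 began 16 bases earlier in 6 and 2.

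Uros reads were few and divided. Bccip, whose start overlaps that of Uros on the opposite strand, had 17 and 25 reads of its own. Uros-201 had 3 and 5 reads and Uros-203, which ends its first exon elsewhere, 2 and 4. Uros-206, which keeps intron 7, had 0 and 2, and an unannotated form with an earlier last exon had 1 in each library. Exon 7 was skipped in 2 of 8 full-length reads in replicate 1 and 2 of 15 in replicate 2. The exon is 81 bases (chr7:133691086-133691166, GRCm38, minus strand), a whole number of codons, given in capitals with 12 bases of each neighbour.
Uros exon 7: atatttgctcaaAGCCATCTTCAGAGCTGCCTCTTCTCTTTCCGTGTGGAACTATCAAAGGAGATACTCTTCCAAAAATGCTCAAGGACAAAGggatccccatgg
The downstream first exon of Uros-209 and Uros-210, the erythroid start, had 0 of 8 and 0 of 15 reads, which allows up to 37.5% and 20.0%.

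The remaining members were read mostly as 1 form. Alad-201 took 63 of 70 and 70 of 75 full-length reads. Alad-202, with another end of the first exon, had 3 and 1 reads, and Alad-203, which keeps intron 7, had 2 and 0. Urod-201 took 40 of 43 and 37 of 40. Fech-208 took 41 of 47 and 33 of 40, and Fech-201, which skips exon 2 (124 bases, not a whole number of codons), had 3 in each library. An unannotated Fech form with exon 4 shortened by 4 bases had 0 and 2. Hmox1-201 (31 and 27 reads) and Cpox-201 (6 and 3) were the only full-length forms of their genes.

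Promoters of 7 of the 9 members were matched in a RefSeq table (GRCm38.p6), 10 windows in all, and the 250 bases before each start were searched on both strands. The core of the NRF1 site, GCATGCGC, was in 1 of the 10, at Alas1, and in 2.26% of all 32851 promoters. It lay before the start at position 106247730, the annotated start of Alas1-202, which had 1 and 0 reads. The other Alas1 window, before position 106247954, held no match. GATA sites, spelled AGATAA or TGATAA, were in 3 of the 10 and in 16.6% of all. These were Alas2, Cpox and the erythroid start of Uros, which had no reads here. The matches are shown in capitals within 30 bases on the gene's strand, so that the letters counted can be seen.
Alas1 (chr9:106247905-106247934, minus strand): gcacccaaggcGCATGCGCggcggtcactc
Alas2 (chrX:150547319-150547348, plus strand): ctactttgctttTTATCTttagcagaggcc
Cpox (chr16:58670110-58670139, plus strand): aaagcgcctatcTTATCAgtccaagcacct
Uros (chr7:133702551-133702580, minus strand): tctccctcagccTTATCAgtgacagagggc
At Alas1 the core overlaps its own match on the other strand by 6 bases. The 30 bases shown lie within the annotated first exon of Alas1-207. They lie upstream of position 106247867, where the most read unannotated Alas1 form starts. A match is a description of the letters and says nothing of binding.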

How the data were processed

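Long-read RNA sequencing of adrenal gland was measured in 2 libraries of 1 group. Per the file headers, the authors deposited whole read counts per transcript model, not normalized, with TALON's classes of models. Per the submitters' processing notes, the build was mm10 and the annotation GENCODE M21. The versions of TALON and of the aligner were not given in the sources at hand.

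Spike-in reads were left out. Counts were summed per annotated gene over all classes and scaled to CPM over endogenous reads. Forms were compared over Known, NIC and NNC reads by their introns. Shares carry Wilson 95% intervals, ratios exact conditional 95% intervals. Intervals, limits (3 counts) and p-values cover counting error only. Reads without molecular identifiers are not independent molecules, and the test on reads compares libraries. Leading form shares were tested the same way where each library had 20 or more full-length reads of a gene and more than 1 form was seen, and called at 10 percentage points. Scripts were tested on simulated data. Versions were Python 3.11.15, scipy 1.17.1, pandas 2.3.3, edgeR 4.0.16 and DESeq2 1.42.0, the last 2 for scaling alternatives.

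The genes and lists were chosen with earlier results of these data known. Every selected gene was named, and of each list the 3 with most reads and every called gene, and forms with at least 5 reads or 5% of full-length reads. Alternatives changed scaling, filters, fold threshold, classes counted and the libraries used. Sequences were read from M21 transcripts and a RefSeq promoter table, not from the mice.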

Additional observations from a re-analysis of the deposited data

Results flagged for a closer look

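Reads on the strand opposite Alas1, outside the counts given for the gene, were above the limit of 3 reads that a count of 0 allows. Unannotated single-exon models there held 23 reads in replicate 1 and 11 in replicate 2. Of the 23, 21 lay in 1 model within intron 2 (chr9:106245054-106245827), and the 11 reads lay in 1 model inside the same stretch (chr9:106245456-106245814). Neither touched an exon of Alas1-207. The authors' class for them is Antisense, which held 3.46% of all endogenous reads in replicate 1 and 5.08% in replicate 2. Such reads are thus not particular to this gene, and their source was not tested.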

How the results depend on the processing

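No paired analysis was possible because the study has 1 group. Alas1 kept its call under all 6 alternatives of the test, with log2 ratios from 2.31 to 2.36. Scaled to adrenal cortex marker reads it was 2.04, and to totals without pancreas and liver markers and the ribosomal RNA locus 2.34, both chosen after the data were seen. Its mean level was 2085 to 2460 CPM over 5 alternatives and 684 to 3521 CPM with 1 library left out. Members called were 2 or 3 of those called before, and Alas1 and Alas2 were called each time. Genes called numbered 212 to 250 under 5 alternatives, and 525 without the fold threshold, which is looser by construction. The leading form share of Alas1, 92.7%, moved to 99.7% over Known reads, which leaves out unannotated forms, and to 89.6% with ISM reads as forms of their own, which adds partial reads. It was 91.1% to 94.4% with 1 library left out. Its first exon share, 99.1%, was 97.7% with ISM reads that keep a first exon, and 98.6% to 99.7% with 1 library left out. Its Known share, 89.4%, was 88.0% to 90.9%. No direction reversed. Among single genes, 15 values moved by more than the spread between the libraries, and 2, both for Ppox, lost the call. With 2 libraries, variation between animals cannot be estimated. Depth limits the members with few reads, and the ratios of Alad, Uros, Urod, Cpox, Fech and Hmox1 have intervals that span 1.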
